A study of Homo sapiens with 18 samples.

Results

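Cholesterol and fatty acid synthesis was examined through 34 genes, which were the rows of the count table whose gene name was one of a list of enzymes of both pathways and their regulators. They were 34 of 19901 genes in the table, and all 34 were among the 15475 genes that passed the filter on low counts. By role, 7 genes covered the mevalonate and isoprenoid steps, 11 the steps from squalene to cholesterol, 6 the regulators and a sterol carrier, and 10 the supply of acetyl-CoA and the making, desaturation, elongation and use of fatty acids. Poly(A) RNA was sequenced from 3 established head and neck squamous cell carcinoma lines: Detroit 562, taken from a metastatic site of a pharyngeal tumour, FaDu from the hypopharynx and SCC-9 from the tongue. Each line was left untreated or was given 50 ng/ml hepatocyte growth factor (HGF), the ligand of the Met receptor tyrosine kinase, for 16 h according to the sample records, although the series record gives a longer time. Every group held 3 libraries, so that 18 were compared. MEM-α was the medium of Detroit 562 and FaDu, whereas SCC-9 was kept in DMEM F12 with HEPES and hydrocortisone, so that line and medium cannot be told apart where lines are compared. Each group is a single cell line. The methods of the study say that the experiment was repeated but not how the libraries relate to its runs. The p-values of the model fits therefore measure only the spread between libraries. For each gene it was estimated over the 18 libraries of all lines together. The spread among FaDu libraries thus enters the tests of the other lines too.

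Cells make cholesterol from acetyl-CoA through mevalonate, isoprenoid diphosphates and squalene, and they make fatty acids from the same precursor. Most enzymes of both routes are transcriptional targets of the sterol regulatory element-binding proteins (SREBPs), which the genes SREBF1 and SREBF2 encode. The escort protein SCAP carries SREBPs from the endoplasmic reticulum to the Golgi for cleavage when sterol is low, and INSIG proteins retain the complex when sterol is high. INSIG1, SREBF2 and many of the enzymes are themselves SREBP targets, and proliferating epithelial and tumour cells use both routes to build membranes.

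Total counts ranged from 35304800 to 44004000 per library, and the 34 genes took between 0.257 and 0.540% of them. All 8 epithelial markers were expressed in every line, whereas all 6 adipocyte or hepatocyte markers stayed under 1 CPM (the count of a gene scaled to equal library size) in all 18 libraries. The leukocyte markers PTPRC, CD3E and LYZ stayed under that level as well. DUSP6, a phosphatase gene induced by ERK signalling, was read as a check of the treatment. It rose by 1.53 on the log2 scale in Detroit 562 (adjusted p = 0.000247) and by 1.44 in FaDu (adjusted p = 0.0115). The value was 0.47 in SCC-9, where it did not pass the test (adjusted p = 1) unless the replicate number was a block (adjusted p = 0.00766). Untreated SCC-9 already held 50.9 to 59.7 CPM of DUSP6, against 5.43 to 5.99 CPM in Detroit 562 and 7.62 to 11.1 CPM in FaDu. With HGF the SCC-9 libraries held 74.6 to 80.5 CPM, without overlap with their controls. Replicate 3 of FaDu stood apart for the genes described here, with and without HGF, and its values are given with the FaDu results.

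In Detroit 562, the messenger RNA of much of the cholesterol pathway and of its regulators was lower with HGF. Of the 34 genes, 15 fell and 1, LPIN1, rose, by edgeR's quasi-likelihood test at a Benjamini-Hochberg adjusted p under 0.1 with a difference of 0.4 or more on the log2 scale. Over all genes tested, 17.9% passed the same thresholds in Detroit 562 (6.16% higher and 11.7% lower). The genes that fell were 5 of 7 in the mevalonate group, 5 of 11 in the squalene and sterol group, 4 of 6 regulators and 1 of 10 fatty acid genes. The median log2 fold change of the 34 genes was -0.34, against -0.01 over all genes tested, and it was -0.51 in the mevalonate group, -0.29 in the squalene and sterol group, -0.75 among the regulators and -0.11 among the fatty acid genes. Comparing libraries of the same replicate number, 24 of the 34 genes were lower with HGF in 3 of 3 pairs and 3 (ACLY, ELOVL6 and LPIN1) were higher in 3 of 3, against 32.3% and 30.6% of all genes.

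**Figure D1:**
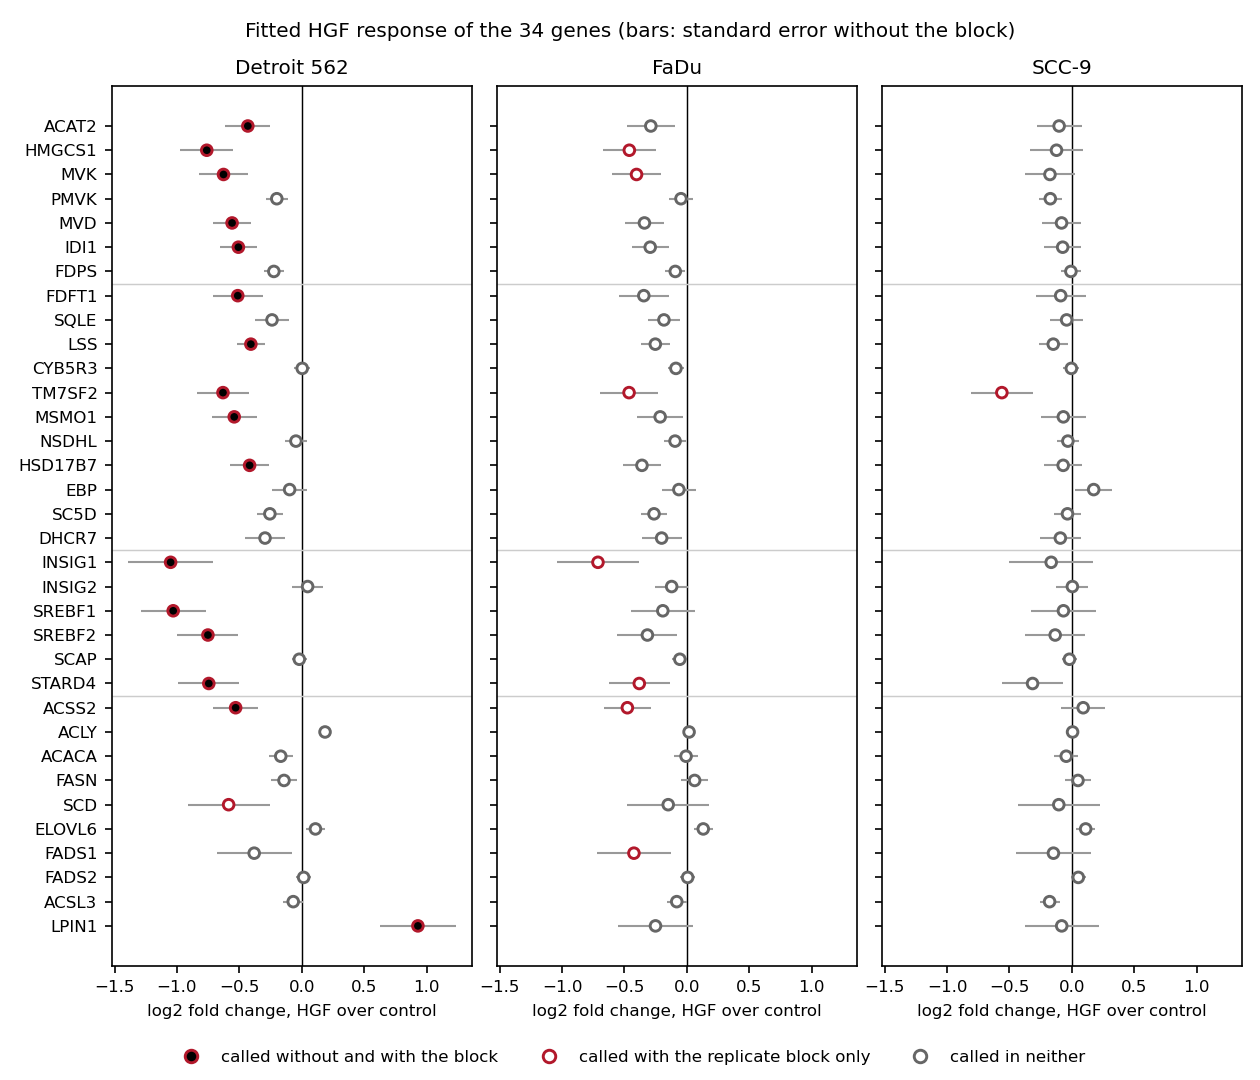
Fitted log2 fold change of HGF over control (x axis) for each of the 34 genes (y axis, grouped by role with grey lines) in the 3 cell lines. Bars are the standard error without the replicate block, filled points passed the test without and with the block, open points with a red rim passed only with the block, and grey rims passed in neither. All 16 filled points lie in Detroit 562, with INSIG1 and SREBF1 farthest to the left and LPIN1 farthest to the right.

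Libraries of the same replicate number were taken as pairs within each line, which the labels do not state. A fit with replicate as a block called 17 genes in Detroit 562, SCD being the addition, against 21.5% of all genes. Of the 17, 16 fell, against 14.4% of all genes, and 1 rose, against 7.13%. DESeq2, run without the filter on low counts, called 16 of the 34 and 14.1% of 19517 genes. Its shares of all genes further below are also over those 19517 genes, not the 15475 that passed the filter. Without the block, the count depended on single libraries. It was 4 without control replicate 1, 8 without control replicate 2 and 5 without HGF replicate 3. It was between 13 and 16 without each of the other libraries. Shares of all genes are not given for fits with a library or replicate number left out. The counts of those fits can therefore not be set against such a share. HMGCS1, MVD, IDI1 and SREBF1 stayed called with each of the 6 libraries left out in turn, and the sign turned for 0 of the 16 genes. With the block the count of genes called was 16 or 17 after leaving out any replicate number in both treatments. In 17 of the 34 genes every HGF library lay below every control library, and in 2 genes (ACLY and ELOVL6) every HGF library lay above, against 20.1% and 18.1% of all genes. Two-sided exact permutation tests of 3 against 3 libraries cannot give a p below 0.1, which was the value of those 19 genes. Beside these changes, 3 of 8 epithelial markers also fell in Detroit 562 (KRT5, KRT8 and CDH1), and the summed level of the 8 ranged from 5860.1 to 8198 CPM in the controls and from 3937 to 5800.1 CPM with HGF. Of 6 fibroblast markers, COL1A1 and COL1A2 fell, with sums of 29.8 to 54.3 CPM in the controls and 15.0 to 27.6 CPM with HGF, while COL3A1, LUM and PDGFRB stayed under 1 CPM. Of the 5 leukocyte markers only CD68 passed the test, upwards, with sums of 20.3 to 40.6 CPM and 37.4 to 56.2 CPM. Their part in the results was not tested, and in bulk libraries fewer cells of a type and less RNA per cell cannot be told apart.

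**Figure D2:**
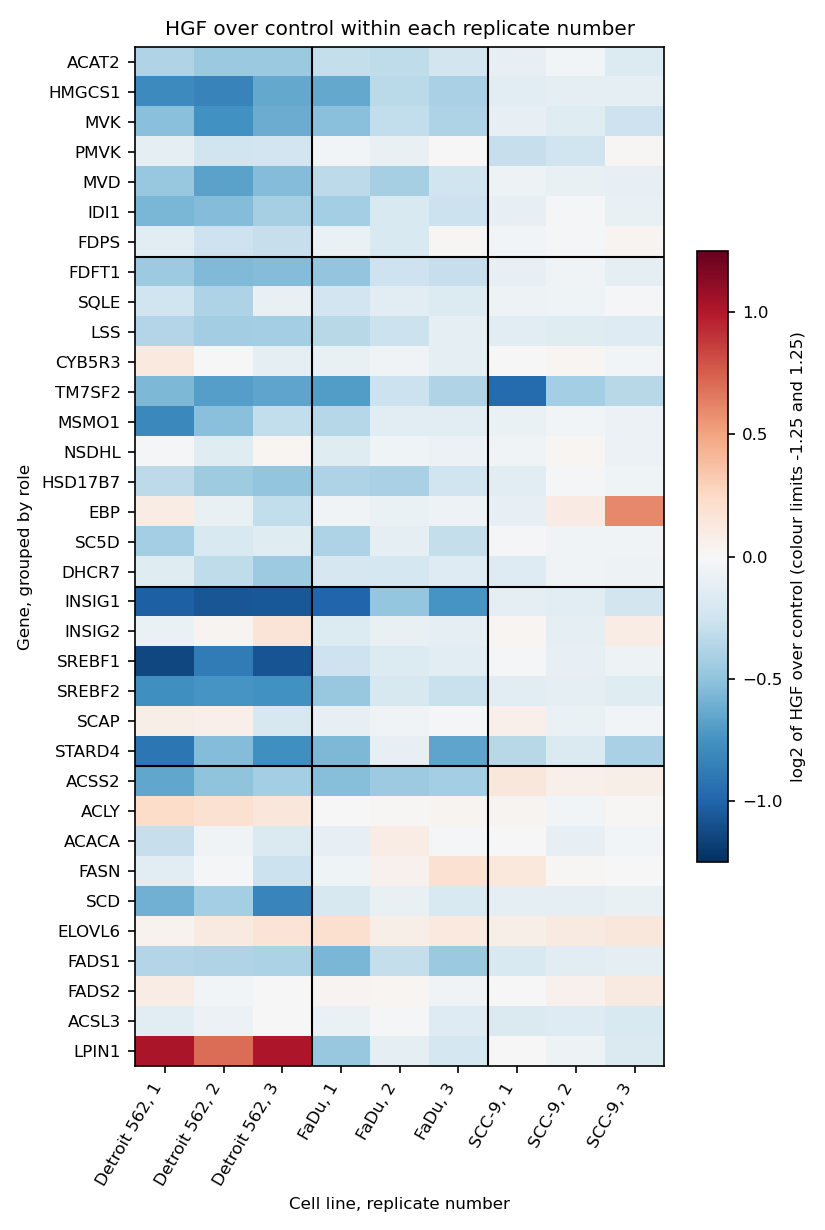
Heat map of the log2 ratio of HGF over control within each replicate number (columns, 3 per cell line) for the 34 genes (rows, grouped by role with black lines). Blue is lower with HGF, red higher. For 24 of the 34 genes all Detroit 562 columns are blue, for 28 all FaDu columns are, and the SCC-9 columns are mostly near white, while LPIN1 is red in all Detroit 562 columns and blue in all FaDu columns.

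Among the regulators in Detroit 562, SREBF1, SREBF2, INSIG1 and STARD4 fell, whereas INSIG2 and SCAP did not pass the test. SREBF1 (ENSG00000072310, chr17:17810399-17837002, minus strand), whose products act mainly on fatty acid synthesis genes, measured 280.4, 220.2 and 134 CPM in control replicates 1, 2 and 3 of Detroit 562 and 127, 119.8 and 63.2 CPM with HGF. Every HGF library lay below every control library although the third replicate was lower than the others in both treatments, and the log2 fold change was -1.03 (SE 0.26, adjusted p = 0.01). In FaDu it measured 217, 236 and 161 CPM without and 182, 209 and 147 CPM with HGF, a log2 fold change of -0.19 (SE 0.257, adjusted p = 0.85). In SCC-9 the values were 107, 145 and 124 CPM and 105, 134 and 118 CPM, a log2 fold change of -0.07 (SE 0.257, adjusted p = 1). The groups overlapped in both of these lines.

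SREBF2 (ENSG00000198911, chr22:41833079-41907308, plus strand) encodes the SREBP that acts mainly on cholesterol synthesis genes and went from 143, 133 and 105 CPM to 84.1, 80.1 and 62.1 CPM in Detroit 562, with no overlap and a log2 fold change of -0.75 (SE 0.244, adjusted p = 0.0336). FaDu libraries gave 275, 312 and 152 CPM in the controls and 198, 271 and 125 CPM with HGF, -0.32 (SE 0.241, adjusted p = 0.715) on the log2 scale. In both FaDu groups replicate 3 was the lowest by far, while each HGF library was below the control of its own number. SCC-9 libraries held 153, 158 and 158 CPM and 139, 146 and 142 CPM, which did not overlap but differed by only -0.13 (SE 0.242, adjusted p = 1).

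INSIG1 (ENSG00000186480, chr7:155297776-155310235, plus strand), which retains SCAP in the endoplasmic reticulum and is itself induced by SREBPs, had the lowest log2 fold change of the 34 genes in Detroit 562, -1.05 (SE 0.338, adjusted p = 0.0321). Its levels there were 37.1, 31.3 and 27.6 CPM in the controls and 18.2, 14.8 and 13.2 CPM with HGF. FaDu controls gave 56.8, 62.1 and 23.6 CPM and FaDu with HGF 28.5, 44.4 and 14.1 CPM, a log2 fold change of -0.71 (SE 0.328, adjusted p = 0.612). The HGF library was the lower one in each FaDu pair, and the adjusted p with the block was 6.34e-05. In SCC-9 the levels were 20.1, 19.1 and 22.7 CPM and 18.5, 17.3 and 19.3 CPM, and the log2 fold change was -0.17 (SE 0.335, adjusted p = 1). The paralog INSIG2 (ENSG00000125629, chr2:118088452-118110997, plus strand) did not follow INSIG1 in Detroit 562, with 33.2, 32.6 and 39.4 CPM in the controls and 31.3, 33.3 and 44.1 CPM with HGF, a log2 fold change of 0.05 (SE 0.126, adjusted p = 0.816). It measured 14.4, 16.9 and 13.9 CPM and 12.8, 15.9 and 12.9 CPM in FaDu, and 18.7, 18.4 and 18.9 CPM and 19.0, 17.0 and 20.2 CPM in SCC-9. The INSIG2 groups overlapped in every line, and the adjusted p was 0.805 in FaDu and 1 in SCC-9.

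SCAP (ENSG00000114650, chr3:47413694-47477126, minus strand) stayed within a narrow range, with 57.5, 56.9 and 61.4 CPM in the Detroit 562 controls and 60.5, 59.4 and 53.5 CPM with HGF (log2 fold change -0.02, SE 0.0609, adjusted p = 0.842). FaDu gave 68.1, 66.9 and 62.8 CPM and 63.6, 65.0 and 61.7 CPM, and SCC-9 67.3, 71.9 and 68.2 CPM and 70.3, 67.7 and 66.6 CPM, so that the groups overlapped in all 3 lines. The sterol carrier STARD4 (ENSG00000164211, chr5:111496033-111512590, minus strand), which moves cholesterol between membranes, went from 34.3, 27.3 and 25.9 CPM to 18.3, 18.7 and 15.2 CPM in Detroit 562, -0.74 (SE 0.246, adjusted p = 0.036). In FaDu it measured 22.1, 25.6 and 15.0 CPM and 14.9, 23.8 and 9.43 CPM (log2 fold change -0.38, SE 0.246, adjusted p = 0.672). STARD4 passed there only with the block, whose own estimate of the fold change reached the 0.4 required, at an adjusted p of 0.0115. SCC-9 libraries held 23.0, 22.3 and 28.3 CPM and 18.05, 19.6 and 21.4 CPM, which did not overlap, but the log2 fold change of -0.32 (SE 0.244, adjusted p = 1) did not pass.

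**Figure D3:**
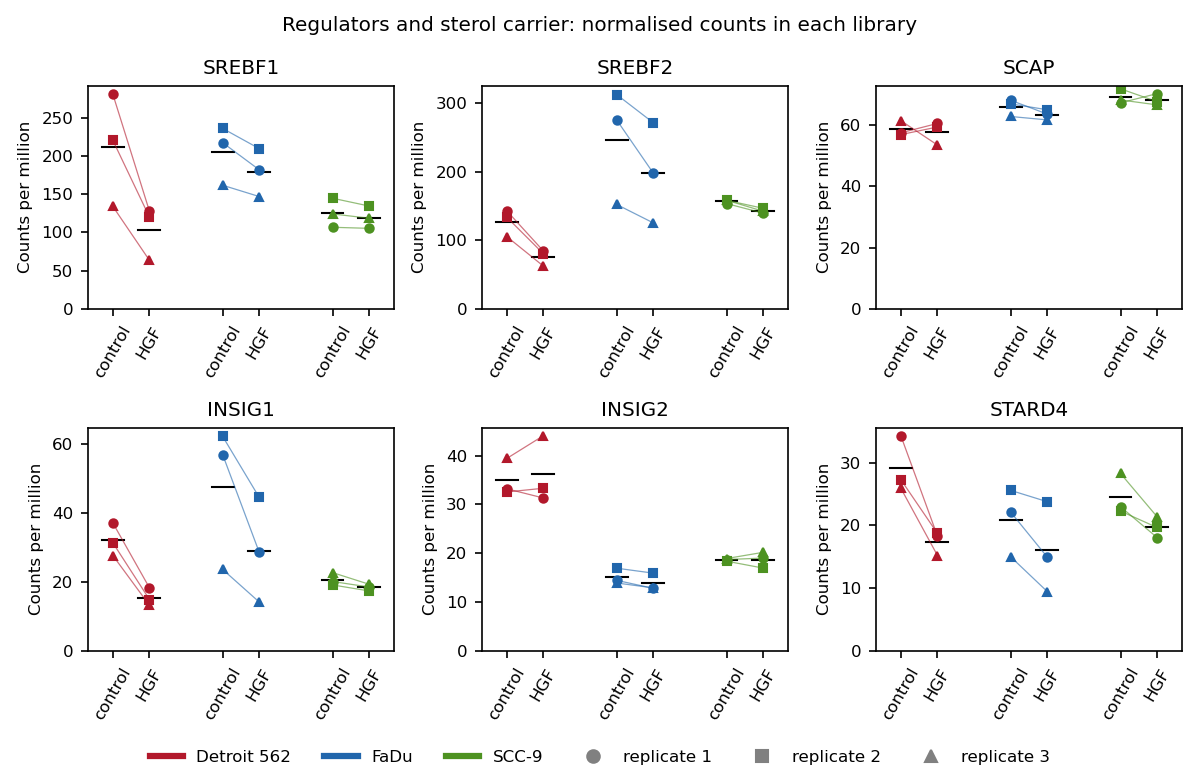
Levels in CPM (y axis, from 0) of SREBF1, SREBF2, SCAP, INSIG1, INSIG2 and STARD4 in each of the 18 libraries. Thin lines join control and HGF libraries of the same replicate number (circle 1, square 2, triangle 3) and short black lines are group means. In Detroit 562 the lines of SREBF1, SREBF2, INSIG1 and STARD4 all slope downwards, while those of SCAP and INSIG2 go both ways. In FaDu the triangles lie lowest for SREBF1, SREBF2, INSIG1 and STARD4.

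Promoter sequences are shown for regulators and enzymes that fell together and for LPIN1, which rose, so that the letters recognised by SREBPs and by their partner NF-Y can be read beside the values. Of the 34 genes, 30 had a window from 250 bases before to 50 after a start site in RefSeq (GRCh38.p14), and the listed start nearest to the gene's own start in the count table was taken. For the shares over all genes the first listed start was taken instead. The start used lay far downstream of that in the count table for FADS2 (23223 bases), FADS1 (12315), ACLY (11520), DHCR7 (3825) and ACSS2 (2843). The windows were searched on both strands for the sterol regulatory element of SREBP target genes, whose letters are the first run of capitals in SREBF2, for its shorter core CACNCCAC, which lies within that run, for the E-box CACGTG and for the NF-Y motif CCAAT. The 250 bases before the start are printed 5′ to 3′ on the gene's strand, with every match in capitals, so that a match on the other strand appears as its complement (ATTGG for CCAAT).
SREBF2, chr22:41832855-41833104, plus strand: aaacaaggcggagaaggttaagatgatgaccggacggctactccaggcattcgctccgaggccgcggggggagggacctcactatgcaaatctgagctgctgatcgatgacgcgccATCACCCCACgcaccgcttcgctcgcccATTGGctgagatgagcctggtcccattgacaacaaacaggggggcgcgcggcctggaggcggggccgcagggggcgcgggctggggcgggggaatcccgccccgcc
INSIG1, chr7:155297628-155297877, plus strand: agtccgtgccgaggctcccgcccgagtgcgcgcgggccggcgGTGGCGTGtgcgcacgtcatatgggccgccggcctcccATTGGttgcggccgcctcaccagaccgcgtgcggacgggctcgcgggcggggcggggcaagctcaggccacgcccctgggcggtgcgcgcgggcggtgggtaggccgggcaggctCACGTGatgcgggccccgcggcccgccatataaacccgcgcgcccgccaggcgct
HMGCS1, chr5:43313413-43313662, minus strand: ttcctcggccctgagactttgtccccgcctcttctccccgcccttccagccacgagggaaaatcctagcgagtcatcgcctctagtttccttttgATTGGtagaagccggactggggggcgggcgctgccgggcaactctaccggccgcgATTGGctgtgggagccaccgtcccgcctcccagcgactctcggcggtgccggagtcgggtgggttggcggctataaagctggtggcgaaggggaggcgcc
MSMO1, chr4:165327419-165327668, plus strand: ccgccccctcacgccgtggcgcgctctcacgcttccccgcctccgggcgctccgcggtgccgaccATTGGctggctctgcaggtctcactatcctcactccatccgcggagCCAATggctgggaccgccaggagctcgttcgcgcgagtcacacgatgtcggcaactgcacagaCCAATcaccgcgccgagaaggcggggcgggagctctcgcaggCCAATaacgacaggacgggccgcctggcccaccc
LPIN1, chr2:11677294-11677543, plus strand: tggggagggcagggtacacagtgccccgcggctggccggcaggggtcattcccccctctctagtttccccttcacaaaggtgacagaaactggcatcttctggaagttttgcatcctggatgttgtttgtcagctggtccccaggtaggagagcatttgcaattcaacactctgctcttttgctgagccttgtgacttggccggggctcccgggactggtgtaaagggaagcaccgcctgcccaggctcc

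Among these genes, the full sterol regulatory element was found in SREBF2 alone, from 134 to 125 bases before the start, and it occurred in 13 of 27305 genes with a window (0.0476%). The core CACNCCAC was found in 4 of 30 windows (13.3%; SREBF2, INSIG1, SCD and SC5D), against 5.74% of all windows, and the E-box in 4 of 30 (INSIG1, SCAP, LSS and SC5D), against 7.43%. CCAAT was found in 19 of 30 windows (63.3%), against 35.7% of all. It was in 5 of 6 windows of the mevalonate group, 7 of 9 of the squalene and sterol group, 3 of 6 of the regulators and 4 of 9 of the fatty acid genes. MSMO1 held it 4 times, and HMGCS1 held it at 155 and 100 bases before the start. CCAAT was also found in NSDHL and EBP, which did not reach the thresholds in Detroit 562. The LPIN1 window held none of the 4 motifs, but neither did that of SREBF1, which fell in Detroit 562. These matches describe letters only and were not tested, and the comparison windows include non-coding genes.

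In the mevalonate group of Detroit 562, the enzymes ACAT2, HMGCS1, MVK, MVD and IDI1 fell, and PMVK and FDPS did not reach the thresholds. HMGCS1 (ENSG00000112972, chr5:43289395-43313512, minus strand), which makes HMG-CoA, measured 141, 139.6 and 122 CPM in the controls and 81.3, 78.3 and 78.1 CPM with HGF, the lowest fold change of the group at -0.76 (SE 0.212, adjusted p = 0.0165). The HGF libraries were closer to each other than the controls were, and the groups did not overlap. FaDu gave 198, 216 and 112 CPM and 127, 171 and 84.4 CPM, a log2 fold change of -0.46 (SE 0.21, adjusted p = 0.609) that passed with the block (adjusted p = 0.000148). SCC-9 gave 55.2, 53.7 and 57.6 CPM and 50.3, 49.4 and 53.1 CPM, -0.12 (SE 0.213, adjusted p = 1). Groups overlapped in FaDu, where replicate 3 was low in both, and not in SCC-9, where the difference was small.

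ACAT2 (ENSG00000120437, chr6:159760328-159779055, plus strand), the cytosolic thiolase that joins 2 acetyl-CoA, went from 59.5, 60.8 and 51.4 CPM to 45.8, 44.2 and 37.2 CPM in Detroit 562, -0.43 (SE 0.181, adjusted p = 0.09). Mevalonate kinase, MVK (ENSG00000110921, chr12:109573255-109598117, plus strand), went from 34.1, 33.4 and 25.5 CPM to 23.8, 19.7 and 16.6 CPM, -0.63 (SE 0.199, adjusted p = 0.0306). Neither pair of groups overlapped, though replicate 3 was the lowest library of each group. FaDu libraries gave 17.4, 19.5 and 10.7 CPM of ACAT2 in the controls and 14.2, 15.7 and 9.10 CPM with HGF (log2 fold change -0.29, SE 0.191, adjusted p = 0.679). For MVK they gave 43.3, 45.5 and 27.6 CPM and 30.1, 36.8 and 21.1 CPM (log2 fold change -0.40, SE 0.196, adjusted p = 0.619), which passed with the block (adjusted p = 0.000769). In SCC-9 ACAT2 measured 58.7, 53.4 and 61.2 CPM and 54.8, 52.3 and 54.4 CPM, and MVK 22.0, 23.2 and 26.2 CPM and 20.5, 20.9 and 21.9 CPM. The SCC-9 groups overlapped for ACAT2 and just separated for MVK, with adjusted p-values of 1 and 1.

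The decarboxylase MVD (ENSG00000167508, chr16:88651935-88663161, minus strand), which makes isopentenyl diphosphate, went from 42.7, 41.0 and 37.2 CPM to 30.8, 25.7 and 25.4 CPM in Detroit 562, -0.56 (SE 0.153, adjusted p = 0.0154). IDI1 (ENSG00000067064, chr10:1039152-1049170, minus strand), the isomerase of that product, went from 79.1, 74.7 and 76.6 CPM to 53.1, 51.3 and 57.6 CPM, -0.51 (SE 0.149, adjusted p = 0.0214). All HGF values of both genes lay below all control values. In FaDu MVD measured 20.02, 25.6 and 15.3 CPM and 16.0, 19.2 and 12.9 CPM, and IDI1 56.4, 58.3 and 38.4 CPM and 42.1, 51.0 and 31.9 CPM. In SCC-9 MVD measured 26.8, 28.9 and 26.3 CPM and 25.7, 27.2 and 24.5 CPM, and IDI1 64.6, 56.0 and 65.2 CPM and 60.3, 55.0 and 61.3 CPM. The FaDu and SCC-9 groups overlapped for both genes, and their log2 fold changes, between -0.34 and -0.07, did not pass. PMVK, the phosphomevalonate kinase, had a log2 fold change of -0.20 (SE 0.09, adjusted p = 0.112) in Detroit 562. FDPS, the farnesyl diphosphate synthase, had one of -0.22 (SE 0.0806, adjusted p = 0.0517), under the fold change required, and as FDPS has processed pseudogenes its counts are less certain.

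From squalene to cholesterol, FDFT1, LSS, TM7SF2, MSMO1 and HSD17B7 fell in Detroit 562, and SQLE, CYB5R3, NSDHL, EBP, SC5D and DHCR7 did not reach the thresholds. FDFT1, the squalene synthase at the branch from isoprenoids to sterols, went from 112, 106 and 89.4 CPM to 81.7, 72.4 and 61.5 CPM, -0.51 (SE 0.199, adjusted p = 0.0686). LSS (ENSG00000160285, chr21:46188141-46228824, minus strand), which closes the sterol ring system, went from 86.5, 85.3 and 73.7 CPM to 67.0, 63.0 and 55.0 CPM, -0.41 (SE 0.115, adjusted p = 0.0171). Control and HGF libraries of both genes were fully separated. In FaDu FDFT1 measured 86.5, 99.2 and 54.8 CPM and 61.4, 83.2 and 44.9 CPM, and LSS 42.3, 48.1 and 33.99 CPM and 33.3, 39.8 and 31.3 CPM. In SCC-9 FDFT1 measured 71.8, 67.3 and 75.3 CPM and 66.9, 65.4 and 69.1 CPM, and LSS 54.8, 55.8 and 52.1 CPM and 49.9, 50.4 and 46.4 CPM. Only LSS in SCC-9 separated among these, at a log2 difference of -0.15 that did not pass (adjusted p = 1).

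TM7SF2 (ENSG00000149809, chr11:65111845-65116384, plus strand), a sterol reductase, went from 30.2, 28.1 and 19.4 CPM to 20.4, 17.5 and 12.3 CPM in Detroit 562, -0.63 (SE 0.206, adjusted p = 0.0346). Here the groups overlapped, since control replicate 3 was below HGF replicate 1. FaDu held only 4.56, 3.94 and 3.00 CPM in the controls and 2.78, 3.27 and 2.30 CPM with HGF (log2 fold change -0.46, SE 0.235, adjusted p = 0.628). SCC-9 held 2.70, 2.69 and 2.96 CPM and 1.36, 1.98 and 2.31 CPM (log2 fold change -0.56, SE 0.248, adjusted p = 1), the lowest log2 fold change in that line, with no overlap. TM7SF2 passed with the block in FaDu and SCC-9, at adjusted p-values of 0.0251 and 0.0354. The counted extent of TM7SF2 shares 16 bases with VPS51, a neighbour on the same strand whose mean count was 3891 against 349 for TM7SF2, and the part of VPS51 reads in its counts was not tested.

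MSMO1 (ENSG00000052802, chr4:165327623-165343160, plus strand), which removes methyl groups from sterols, went from 69.2, 59.1 and 61.5 CPM to 39.7, 41.2 and 49.7 CPM in Detroit 562, -0.54 (SE 0.182, adjusted p = 0.0386). HSD17B7 (ENSG00000132196, chr1:162790702-162812817, plus strand), a ketosteroid reductase of the pathway that has related pseudogenes, went from 13.5, 13.7 and 13.1 CPM to 10.8, 10.0 and 9.34 CPM, -0.42 (SE 0.154, adjusted p = 0.0559). Both separated fully in Detroit 562. In FaDu MSMO1 measured 34.9, 38.6 and 22.7 CPM and 27.1, 35.1 and 20.7 CPM, and HSD17B7 17.7, 20.1 and 12.5 CPM and 13.5, 15.2 and 10.5 CPM. In SCC-9 MSMO1 measured 57.1, 47.3 and 57.8 CPM and 53.8, 46.1 and 54.8 CPM, and HSD17B7 9.30, 8.77 and 10.2 CPM and 8.51, 8.60 and 9.85 CPM. The groups overlapped in those lines, and no adjusted p was below 0.584. The members of this group that did not reach the thresholds in Detroit 562 had log2 fold changes from -0.29 for DHCR7, which makes cholesterol from its last precursor, to 0.00 for CYB5R3, a reductase that supplies electrons. The value was -0.26 (SE 0.105, adjusted p = 0.0849) for SC5D, a sterol desaturase, and for squalene epoxidase, SQLE, it was -0.24 (SE 0.132, adjusted p = 0.196).

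Of the 10 fatty acid genes in Detroit 562, ACSS2 fell and LPIN1 rose, while the core enzymes ACLY, ACACA and FASN did not reach the thresholds. ACSS2 (ENSG00000131069, chr20:34872146-34927962, plus strand), which makes acetyl-CoA from acetate, went from 31.7, 29.7 and 25.3 CPM to 20.2, 20.9 and 18.8 CPM, -0.53 (SE 0.18, adjusted p = 0.0406). In FaDu it measured 11.8, 13.1 and 7.21 CPM and 8.14, 9.53 and 5.37 CPM (log2 fold change -0.48, SE 0.191, adjusted p = 0.58), and this passed with the block (adjusted p = 0.000531). In SCC-9 it measured 44.2, 48.3 and 47.5 CPM and 48.6, 50.4 and 50.0 CPM (log2 fold change 0.09, SE 0.175, adjusted p = 1). The HGF libraries of SCC-9 were therefore all slightly above the controls, unlike the other lines, in which each HGF library was below the control of its number.

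LPIN1 (ENSG00000134324, chr2:11677595-11827409, plus strand) encodes a phosphatidate phosphatase of triglyceride synthesis. It measured 8.91, 11.2 and 18.1 CPM in the Detroit 562 controls and 18.1, 18.2 and 36.5 CPM with HGF, a log2 fold change of 0.93 (SE 0.301, adjusted p = 0.033). Replicate 3 was the highest in both groups, and control replicate 3 was about level with HGF replicates 1 and 2. FaDu libraries held 13.3, 17.2 and 9.74 CPM and 9.62, 15.9 and 8.35 CPM (log2 fold change -0.25, SE 0.303, adjusted p = 0.831). SCC-9 libraries held 16.2, 17.9 and 17.7 CPM and 16.3, 17.1 and 15.6 CPM (log2 fold change -0.08, SE 0.298, adjusted p = 1). LPIN1 was thus higher with HGF in 3 of 3 pairs of Detroit 562 and lower in 3 of 3 pairs of FaDu.

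ACLY, which makes acetyl-CoA from citrate, was slightly higher in Detroit 562, at 139, 137 and 146 CPM without and 163, 155 and 162 CPM with HGF. The groups did not overlap, but the log2 fold change of 0.19 (SE 0.0514, adjusted p = 0.0158) was under the 0.4 required. Acetyl-CoA carboxylase, ACACA, had a log2 fold change of -0.17 (SE 0.0955, adjusted p = 0.207) and fatty acid synthase, FASN, of -0.14 (SE 0.106, adjusted p = 0.344). The stearoyl-CoA desaturase SCD measured 823, 707 and 477 CPM in the controls and 542, 525 and 270.3 CPM with HGF. Replicate 3 was the lowest in both groups, and the log2 fold change of -0.59 (SE 0.328, adjusted p = 0.2) passed only with the block (adjusted p = 1.24e-06). The log2 fold change was -0.38 (SE 0.3, adjusted p = 0.376) for the desaturase FADS1, 0.11 (SE 0.0753, adjusted p = 0.304) for the elongase ELOVL6 and, for the acyl-CoA synthetase ACSL3, -0.07 (SE 0.0806, adjusted p = 0.569).

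FADS2, a desaturase of polyunsaturated fatty acids, needs a caution, since its counted extent (chr11:61792980-61867354) shares 4265 bases on the same strand with FEN1 (chr11:61792637-61797244), a DNA replication nuclease. Between 4.26 and 9.45% of its count remained after the FEN1 count was subtracted, an alternative added after seeing the data. As deposited, FADS2 had a log2 fold change of 0.02 (SE 0.0606, adjusted p = 0.881) in Detroit 562. After subtraction it measured 19.7, 18.8 and 12.5 CPM in the controls and 15.0, 11.9 and 9.01 CPM with HGF, and its log2 fold change of -0.50 (SE 0.207) passed the test (edgeR, adjusted p = 0.0851). The sign of the FADS2 value in Detroit 562 was thus reversed by the subtraction. After subtraction the log2 fold change was -0.21 (SE 0.207) in FaDu and -0.17 (SE 0.21) in SCC-9, with adjusted p-values of 0.781 and 1. The subtraction also takes away FEN1 reads from outside the shared bases.

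In FaDu, most of these genes were lower with HGF than in the control of the same number, but 0 of the 34 passed edgeR's test without the block, and 4 genes did so over all tested (0.0258%). The median log2 fold change of the 34 genes was -0.21, against 0.00 over all genes, but it ranged from -0.37 without control replicate 3 to -0.058 without HGF replicate 3. Of the 34 genes, 28 were lower with HGF in 3 of 3 pairs, against 23.3% of all genes. All 11 genes of the squalene and sterol group and all 6 regulators were among those 28, with 6 of 7 mevalonate genes and 5 of 10 fatty acid genes. At an unadjusted p under 0.05, 7 of the 34 genes were lower and 0 were higher, against 8.06% of all genes in either direction, and DESeq2 called 0 of the 34 and 0.338% of all genes. With replicate as a block, HMGCS1, MVK, TM7SF2, INSIG1, STARD4, ACSS2 and FADS1 fell, 7 of 34, against 5.6% of all genes (3.6% lower). With the same block KRT5 of the epithelial markers had a log2 fold change of -0.58 in FaDu (adjusted p = 0.00147), the collagen gene COL1A1 of -0.59 (adjusted p = 0.00298) and CD68 of 0.51 (adjusted p = 0.00164). The 8 epithelial markers summed to 7826 to 13114 CPM in the controls and 6458 to 11223 CPM with HGF, the 6 fibroblast markers to 4.01 to 6.79 and 3.41 to 4.73 CPM and the 5 leukocyte markers to 17.1 to 28.4 and 29.5 to 36.2 CPM, and their part in the results was not tested. The blocked count of the 34 genes was 2 without replicate 1, 7 without replicate 2 and 6 without replicate 3 in both treatments. FADS1 measured 137, 171 and 67.4 CPM in the FaDu controls and 92.4, 139 and 48.9 CPM with HGF, and its log2 fold change was -0.42 (SE 0.3, adjusted p = 0.695) without the block and passed with it (adjusted p = 9.35e-05).

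The FaDu libraries differed more among themselves in these genes than those of the other lines. In replicate 3, 32 of the 34 genes lay below the mean of their group among the controls and 33 of 34 with HGF, and the median deviations were -0.33 and -0.28 on the log2 scale. Replicate 2 was the highest in both groups, with median deviations of 0.22 and 0.24. Replicate 3 of Detroit 562 also lay low, with 26 of the 34 genes below the mean of their group in the controls and 24 with HGF. Its median deviations were smaller, at -0.077 and -0.10, and those of replicate 3 of SCC-9 were 0.029 and 0.041. The median standard deviation of the 34 genes over the 3 FaDu libraries was 0.294 in the controls and 0.264 with HGF, against 0.135 and 0.160 over all genes. In Detroit 562 it was 0.119 and 0.147, against 0.126 and 0.156 over all genes, and in SCC-9 0.0764 and 0.0648, against 0.0936 and 0.0911. Only in FaDu was the median above that of all genes in both treatments. There, 0 of the 34 genes had all HGF libraries on the same side of all control libraries, against 5.36% of all genes below and 4.05% above. Why replicate 3 lay low in FaDu and Detroit 562 was not tested.

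**Figure D4:**
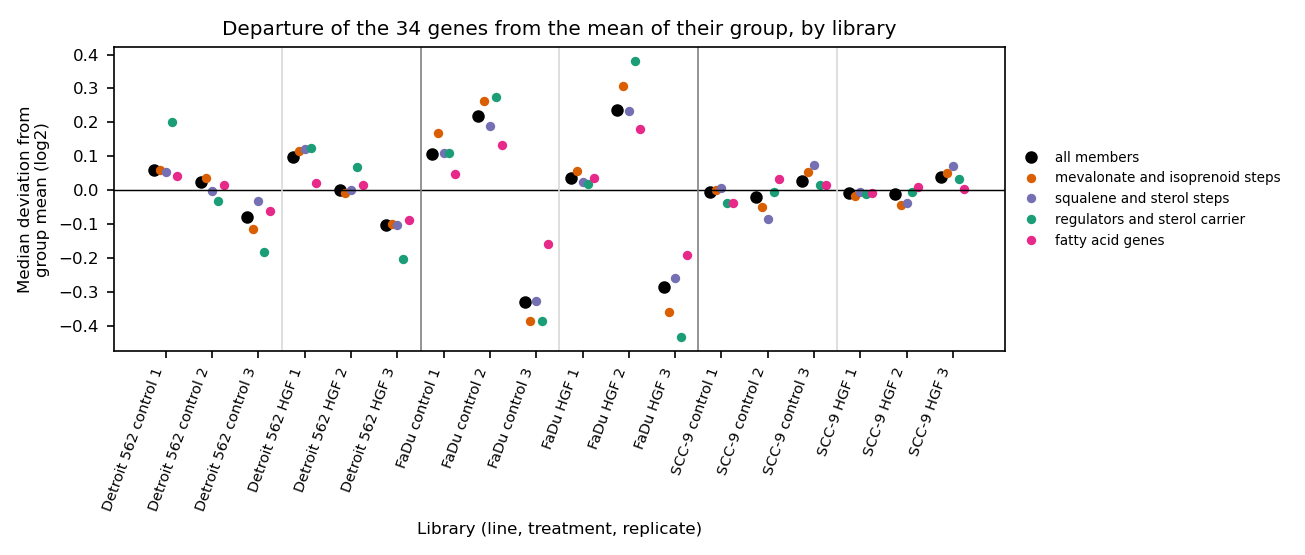
Median deviation of the 34 genes from the mean of their group, on a log2 scale (y axis), in each of the 18 libraries (x axis), for all 34 genes (black) and by role (colours). Replicate 3 of FaDu lies at -0.33 in the controls and -0.28 with HGF, and the regulators and mevalonate genes deviate farther than the fatty acid genes there.

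In SCC-9, changes were small. By edgeR's test without the block 0 of the 34 genes passed, as did 0 of all genes (0%), and DESeq2 called 0 of the 34 and 0.0974% of all genes. At an unadjusted p under 0.05, 2 genes were lower, TM7SF2 and ACSL3, against 4.14% of all genes in either direction. With the block TM7SF2 alone was called, against 1.97% of all genes (1.41% lower), and it no longer passed when any replicate number was left out. The median log2 fold change was -0.07, and 20 of 34 genes were lower in 3 of 3 pairs and 3 (ACSS2, FASN and ELOVL6) higher, against 24.6% and 23.9% of all genes. In 9 genes all HGF libraries were below all controls and in 2 all were above, against 9.12% and 8.3%.

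Whether the lines differed in their response to HGF was tested by contrasts of their log2 fold changes, at an adjusted p under 0.1. Without the block, edgeR called 0 of the 34 genes for any pair of lines, and 0.239%, 0.924% and 0% of all genes did for Detroit 562 against FaDu, Detroit 562 against SCC-9 and FaDu against SCC-9. Unadjusted p-values under 0.05 were seen for 3, 6 and 1 of the 34 genes and for 11.6%, 15.4% and 2.18% of all genes, and DESeq2 called 0 in each, against 1.38%, 3.33% and 0.0256% of all genes. With the block, which removed the shared level of each replicate number, the counts were 10, 21 and 4, against 19.1%, 26.9% and 1.32% of all genes. Between Detroit 562 and FaDu, the responses of HMGCS1, MVD, IDI1, MSMO1, INSIG1, SREBF1, SREBF2 and SCD were lower in Detroit 562 and those of ACLY and LPIN1 higher, against 8.98% and 10.1% of all genes. SREBF1 differed most among the lower ones, by -0.84 (SE 0.0705, adjusted p = 2.42e-05), compared with -0.84 (SE 0.364, adjusted p = 0.396) without the block. The blocked count lay between 5 without replicate 2 of FaDu and 13 without replicate 1 of FaDu. SREBF2 differed by -0.43 (adjusted p = 0.00161 with and 0.641 without the block).

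Between Detroit 562 and SCC-9, the blocked fit called 19 genes with the lower response in Detroit 562 and 2, ACLY and LPIN1, with the higher one, against 13.2% and 13.8% of all genes. The 19 held 6 of 7 mevalonate genes, PMVK being the exception, and SREBF1, SREBF2, INSIG1 and STARD4, whereas INSIG2 and SCAP were not called. The blocked count of 21 lay between 15 and 21 when any replicate number was left out. For SREBF1 the difference was -0.97 (SE 0.0711, adjusted p = 4.64e-06) and for INSIG1 -0.89 (SE 0.114, adjusted p = 0.000187), against adjusted p-values of 0.243 and 0.381 without the block. Between FaDu and SCC-9, HMGCS1, INSIG1, ACSS2 and FADS1 had the lower response in FaDu, against 0.511% of all genes, with ACSS2 at -0.57 (SE 0.086, adjusted p = 0.00729). Leaving out replicate 1 of FaDu or replicate 1 or 2 of SCC-9 brought that count of 4 to 1, leaving out replicate 3 of either line brought it to 2 and leaving out replicate 2 of FaDu to 5. Each of these tests used libraries of lines that another of them used too, so they are not independent of each other.

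Untreated, the lines differed in many of the 34 genes, at shares near those of all genes. Between Detroit 562 and FaDu 20 of 34 were called (13 higher and 7 lower in Detroit 562), against 61% of all genes (31.2% higher and 29.8% lower). Between Detroit 562 and SCC-9 24 were called (19 higher and 5 lower), against 65.4% (31.4% higher and 33.9% lower). Between FaDu and SCC-9 19 were called (14 higher and 5 lower in FaDu), against 64.2% (30.7% higher and 33.5% lower). Non-overlapping control libraries were found for 24, 28 and 23 genes, against 74%, 80.7% and 78.6%. The levels of each gene below are group means with standard deviations over 3 control libraries.

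TM7SF2 had the widest range of untreated means, with 25.9 ± 5.73 CPM in Detroit 562, 3.84 ± 0.783 CPM in FaDu and 2.78 ± 0.152 CPM in SCC-9. Detroit 562 was above FaDu by 2.76 on the log2 scale (SE 0.226, adjusted p = 8.98e-09), and FaDu above SCC-9 by 0.46 (SE 0.235, adjusted p = 0.0842). EBP (ENSG00000147155, chrX:48521158-48528716, plus strand), the sterol isomerase, followed another order, with FaDu the highest. Its control libraries measured 84.1, 81.7 and 75.1 CPM in FaDu, 38.9, 40.0 and 43.0 CPM in Detroit 562 and 10.6, 12.4 and 7.21 CPM in SCC-9. With HGF the values were 81.5, 77.3 and 71.8 CPM, 41.6, 37.5 and 34.7 CPM and 9.89, 13.3 and 10.9 CPM in the same order. The lines did not overlap, and FaDu exceeded SCC-9 by 2.99 (SE 0.15, adjusted p = 1.72e-11), while EBP did not pass the test of HGF in any line.

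ACSS2 was highest in SCC-9, at 46.6 ± 2.18 CPM, followed by Detroit 562 at 28.9 ± 3.25 CPM and FaDu at 10.7 ± 3.09 CPM. The log2 difference of FaDu from SCC-9 was -2.13 (SE 0.187, adjusted p = 2e-08). ACAT2 was also low in FaDu, at 15.9 ± 4.59 CPM, against 57.2 ± 5.14 CPM in Detroit 562 and 57.8 ± 3.96 CPM in SCC-9, and Detroit 562 and SCC-9 were not told apart (adjusted p = 0.952). The core fatty acid enzymes went the other way and were lowest in Detroit 562 for ACLY, at 141 ± 5.04 CPM, and FASN, at 479 ± 55.2 CPM. FaDu held 273 ± 13.1 CPM of ACLY and 1151 ± 120.0 CPM of FASN, and SCC-9 324 ± 4.57 CPM and 878 ± 69.0 CPM. ACACA was highest in FaDu, at 237 ± 23.5 CPM, then Detroit 562 at 135 ± 6.93 CPM and SCC-9 at 69.3 ± 2.90 CPM, and each neighbour differed.

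Among the regulators, the SREBF2 level of untreated Detroit 562 differed from that of FaDu by -0.96 on the log2 scale (SE 0.243, adjusted p = 0.00208), and it was not told apart from that of SCC-9 (adjusted p = 0.266). For SREBF1, Detroit 562 and FaDu were not told apart (adjusted p = 0.879), and both were above SCC-9, by 0.76 and 0.71. INSIG2 was highest in Detroit 562, at 35.1 ± 3.80 CPM against 15.1 ± 1.62 CPM in FaDu and 18.7 ± 0.273 CPM in SCC-9. For the SCAP gene the largest of the differences between lines was -0.24 (SE 0.0607), under the fold change required. DHCR7 measured 159 ± 13.8 CPM in Detroit 562, 112 ± 24.8 CPM in FaDu and 42.5 ± 0.4004 CPM in SCC-9, and all 3 pairs of lines differed.

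**Figure D5:**
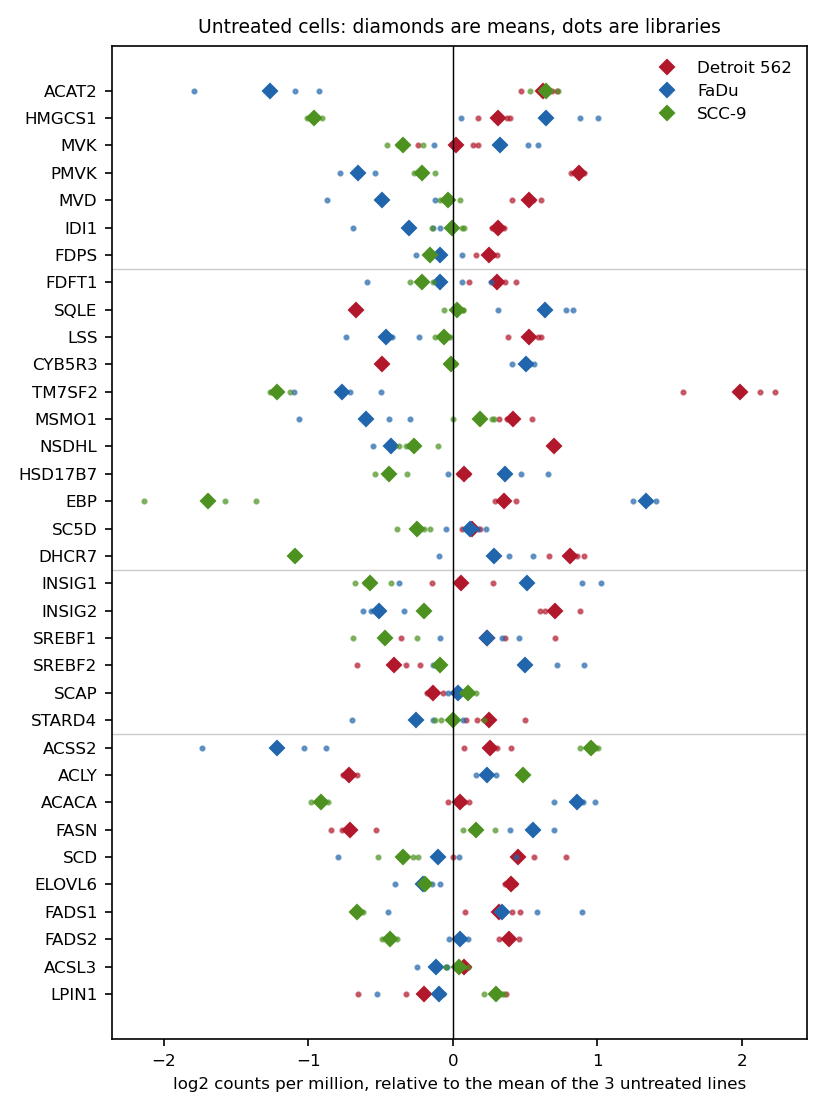
Level of the 34 genes in untreated cells, as log2 CPM relative to the mean of the 3 lines (x axis), with diamonds for the mean of a line and dots for its 3 libraries. TM7SF2, EBP and ACSS2 spread farthest, SCAP and ACSL3 least, and no line is highest throughout.

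Related genes outside the 34 were read for comparison. In Detroit 562, 2 of 20 genes of sterol uptake, storage, transport and efflux rose and 2 fell, and over the 67 genes tested in the lists given here 15 were called, against 17.9% of all genes. The cholesterol exporter ABCA1 rose by 1.01 on the log2 scale (SE 0.272, adjusted p = 0.014), with 10.5, 9.48 and 11.4 CPM in the controls and 17.0, 21.6 and 24.8 CPM with HGF. SCARB1, a receptor for high-density lipoprotein, rose by 0.60 (adjusted p = 0.00197), while the lysosomal lipase LIPA fell by 0.40 (adjusted p = 0.0149) and CH25H, which makes a hydroxycholesterol, fell by 2.32 (adjusted p = 0.00445). Of 9 genes of SREBP processing and sterol-regulated degradation, edgeR called 0, as did DESeq2. An unadjusted edgeR p under 0.05 was seen for 3 of the 9, against 38.4% of all genes. Of 10 further sterol and isoprenoid enzymes 1 rose and 3 fell, with log2 fold changes from -0.62 to 0.42 over the 10. Of 28 further fatty acid and glycerolipid genes tested, 3 rose (ACSL4, 0.65; DGAT2, 0.67; LPIN2, 0.50) and 4 fell (ME1, -0.41; ACSL1, -0.83; LPIN3, -0.40; TECR, -0.41). The acyl-CoA synthetases ACSL1 and ACSL4 and the lipins LPIN2 and LPIN3 thus went in opposite directions, LPIN2 with LPIN1. In FaDu and SCC-9, edgeR and DESeq2 called 0 of the 67 genes tested in these lists. Unadjusted edgeR p-values under 0.05 were seen for 5 and 1 of the 67, against 8.06% and 4.14% of all genes. With the block 1 rose in FaDu, ABCA1, by 0.95 (adjusted p = 0.031), and 3 fell, among them FADS3 and ACSL5, against 5.6% of all genes, while in SCC-9 the count was 0.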

How the data were processed

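Messenger RNA from 18 samples of 3 cell lines was sequenced after TruSeq stranded mRNA library preparation. The authors trimmed reads with Cutadapt 1.16, aligned them to GRCh38.p12 with STAR 2.5.2b and deposited whole-number read counts per gene, made with bedtools intersect on the strand of the gene. Counting was over whole gene extents, so that reads in introns count and a read in 2 overlapping genes enters both. According to the submitters' processing notes, base calls came from bcl2fastq 2.20.0.422 and the study's own comparison from DESeq2 1.22.1, of which no values were used here.

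Totals were 35304800 to 44004000 counts per library, with a median of 40138900, and no library was a duplicate of another. Counts as deposited were normalised by TMM and filtered by expression in 6 groups of 3 with edgeR 4.0.16 (R 4.3.3). The quasi-likelihood fit took all 18 libraries, without a block, and p-values were adjusted by Benjamini-Hochberg over all 15475 genes. Calls needed an adjusted p under 0.1 and a difference of 0.4 or more in size on the log2 scale, which are the thresholds of the study, whereas differences between responses needed the adjusted p alone. CPM values used the TMM library sizes. All p-values in the text that are not named otherwise come from this fit, and those called blocked from the same fit with a block for each replicate number inside a line. The labels give only a number, so pairing by it was an assumption. Within lines, deviations from group means of same-numbered libraries correlated at 0.161 to 0.563 over 9 pairs. Those of different numbers correlated at -0.489 to 0.218, so the ranges overlapped.

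Values in every library were given for genes called in a comparison of HGF with control, for the 6 regulators and for the 3 genes with the widest range among untreated lines. Other pathway genes were given by counts, and most of those called by name. The 34 genes, these lists and the marker lists were chosen with earlier results of these data known. A few genes of the other lists are not reported here. Alternatives were DESeq2 1.42.0 with and without a fold change prior, DESeq2 size factors, no filter, a filter of 50 counts in 3 libraries, no minimum fold change, only the groups compared, the replicate block and each library left out. The models were tested on simulated data first. Promoter windows were searched with Python 3.11.15 and pandas 2.3.3.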

Additional observations from a re-analysis of the deposited data

Results flagged for a closer look

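Some genes had one sign in every pair of one line and the other sign in every pair of another. The share of all genes with such a pattern is not given. LPIN1 was higher with HGF in all 3 pairs of Detroit 562 and lower in all 3 pairs of FaDu, and its responses differed by 1.18 on the log2 scale (edgeR, adjusted p = 0.328, or 8.3e-05 with the replicate block). ACSS2 was lower in all 3 pairs of Detroit 562 and of FaDu and higher in all 3 pairs of SCC-9. Its response differed by -0.62 between Detroit 562 and SCC-9 (adjusted p = 0.267, or 0.00017 with the block) and by -0.567 between FaDu and SCC-9 (adjusted p = 1, or 0.00729 with the block). FASN was lower in all 3 pairs of Detroit 562 and higher in all 3 pairs of SCC-9. Some of its log2 ratios were very small, at -0.018 in Detroit 562 replicate 2 and 0.014 and 0.0023 in SCC-9 replicates 2 and 3. The difference of -0.191 between the responses did not pass in either edgeR fit (adjusted p = 0.566, or 0.102 with the block).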

How the results depend on the processing

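Adding replicate as a block moved the counts of genes called from 0 to 7 in FaDu and from 0 to 1 in SCC-9, and for the differences between responses from 0 to 10 (Detroit 562 against FaDu), 21 (Detroit 562 against SCC-9) and 4 (FaDu against SCC-9). It lost no call of a single gene. The fit of only the groups compared called 4 genes for Detroit 562 against SCC-9. Shares of all genes are not given for that fit or for the fit without a filter, so their counts cannot be set against one. In Detroit 562, no filter gave 14 calls, ACAT2 and LSS being lost, and DESeq2 with the prior lost the call of INSIG1 between untreated Detroit 562 and SCC-9. Subtracting FEN1 counts turned FADS2 in Detroit 562 to -0.50. Other causes of these shifts were not tested.

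Leaving out a library in turn gave 4 to 16 calls in Detroit 562 and medians from -0.45 to -0.28. It gave 0 calls throughout in FaDu and SCC-9, with medians from -0.37 to -0.058 and from -0.10 to -0.044. For the differences between responses it gave 0 to 1, 0 to 2 and 0 calls, with medians from -0.24 to -0.0024, from -0.32 to -0.19 and from -0.28 to -0.0014. The untreated comparisons gave 19 to 23, 21 to 26 and 17 to 20 calls, with medians from 0.13 to 0.33, 0.47 to 0.57 and 0.01 to 0.41, the widest of them set by FaDu replicates 2 and 3. With the block and a replicate number left out in both treatments, an alternative chosen after seeing the data, counts were 16 to 17 in Detroit 562, 2, 7 and 6 in FaDu and 0 in SCC-9. For the differences they were 6, 8 and 8 without Detroit 562 replicates 1, 2 and 3 and 13, 5 and 6 without those of FaDu, then 20, 20 and 21 without those of Detroit 562 and 21, 15 and 17 without those of SCC-9 for Detroit 562 against SCC-9, and 1, 5 and 2 without those of FaDu and 1, 1 and 2 without those of SCC-9 for FaDu against SCC-9. Medians moved to -0.39 in Detroit 562 and to -0.27 for its difference from SCC-9 without replicate 1 of Detroit 562. A block within lines could not be used between untreated lines, and a block shared by the lines, also added after seeing the data, moved no count there by over 1.5 times.

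Genes near 2 or 3 CPM, such as TM7SF2 outside Detroit 562, rest on fewer reads than the others. Counting over whole gene extents leaves overlapping genes unresolved, and 3 libraries per group limit every comparison.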
